A study of Mus musculus with 17 samples.

Results

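XEN cells kept in ESC medium were compared with mouse embryonic fibroblasts (MEF), taking the 6 libraries that the sample labels assign to these groups (3 of XEN cells and 3 of MEF) out of 17 RNA-seq libraries in all. XEN cells are self-renewing lines of the extraembryonic endoderm, and MEF are connective tissue cells of the embryo. All cells were of CD-1 background. The MEF were the labelled controls and had 3 passages in MEF medium. The XEN lines carry the numbers 1, 2 and 7 and had 10 passages followed by 5 more, all in ESC medium. The remaining 11 libraries hold XEN cells in XEN medium and induced XEN cells in either medium. The groups thus differ in cell type, in medium and in passage number at once, and these cannot be told apart. The sources used here do not say whether a line is a clone, whether fibroblasts of several embryos were pooled, or how old the embryos were.

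Extraembryonic endoderm arises in the blastocyst as primitive endoderm, under GATA and SOX transcription factors, and gives rise to the visceral endoderm, which takes up and transports nutrients, and to the parietal endoderm, which lays down the thick basement membrane named after Reichert. Basement membranes are sheets of laminin, type IV collagen, nidogen and perlecan. Fibroblasts instead secrete the fibrillar collagens, fibronectin and elastic fibres of connective tissue, and make contractile actin bundles.

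Counts in genes came to 25871507, 27263921 and 33893638 in MEF 1, 2 and 3 and to 20071567, 23570538 and 42349804 in XEN 1, 2 and 7. Levels are given as CPM, counts scaled to library size with TMM factors, always in that order of libraries, and they are not divided by transcript length. A count of 0 in a XEN library allows a level of up to 0.149, 0.127 and 0.0708 CPM, from counting error alone and before the scaling. The MEF libraries lay close together, with a biological coefficient of variation of 0.195, and the XEN libraries further apart, at 0.598. The labelled cell types were checked against their markers. The 7 extraembryonic endoderm markers (Gata4, Gata6, Sox17, Sox7, Foxa2, Lama1 and Dab2) summed to 235, 209 and 267 CPM in MEF and to 13116, 27618 and 2752 CPM in XEN cells. Most of the XEN sums was Lama1, at 11168, 24112 and 1445 CPM, and most of the MEF sums Dab2, at 187, 149 and 220 CPM. Of the 7 markers, 3, 4 and 4 were above 1 CPM in MEF and 7, 7 and 6 in XEN cells. The 8 fibroblast markers (Thy1, Pdgfrb, Col1a1, Col1a2, Col3a1, Twist2, Prrx1 and Postn) summed to 43959, 35239 and 48178 CPM in MEF and to 7629, 324 and 1.23 CPM in XEN cells. XEN 1 therefore held all 8 fibroblast markers above 1 CPM, XEN 2 held 5 and XEN 7 held 0. In such bulk samples, fewer cells of a type and less RNA per cell cannot be told apart. Values without XEN 1 are given below beside each of these markers that is tested by name, beside other matrix and signalling genes, and for most gene lists.

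The test called 3507 of 14001 genes (25.0%), 1591 higher (11.4% of genes tested) and 1916 lower (13.7%) in XEN cells. A gene is called, or said to have risen or fallen, where the Benjamini-Hochberg adjusted p of edgeR's quasi-likelihood test is under 0.05. These p-values measure only the spread between these libraries, which may in part be technical. In brackets, the first value given for a gene is its log2 fold change, XEN cells over MEF, followed by its standard error (SE) and, where printed, that adjusted p. In 7461 genes (53.3%) every XEN library lay on 1 side of every MEF library, which is called no overlap below. Of the calls, 348 were at least 4 log2 units higher and 778 at least 4 log2 units lower. In 112 of the genes called lower, all 3 XEN libraries had 0 counts, and in 13 of those called higher all 3 MEF libraries did. With these genes set to the bound that 3 counts over the group allow, the lower count was 772 and the higher count stayed at 348. The median log2 fold change over all genes tested was -0.03, so the changes below are close to those relative to the typical gene.

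**Figure D1:**
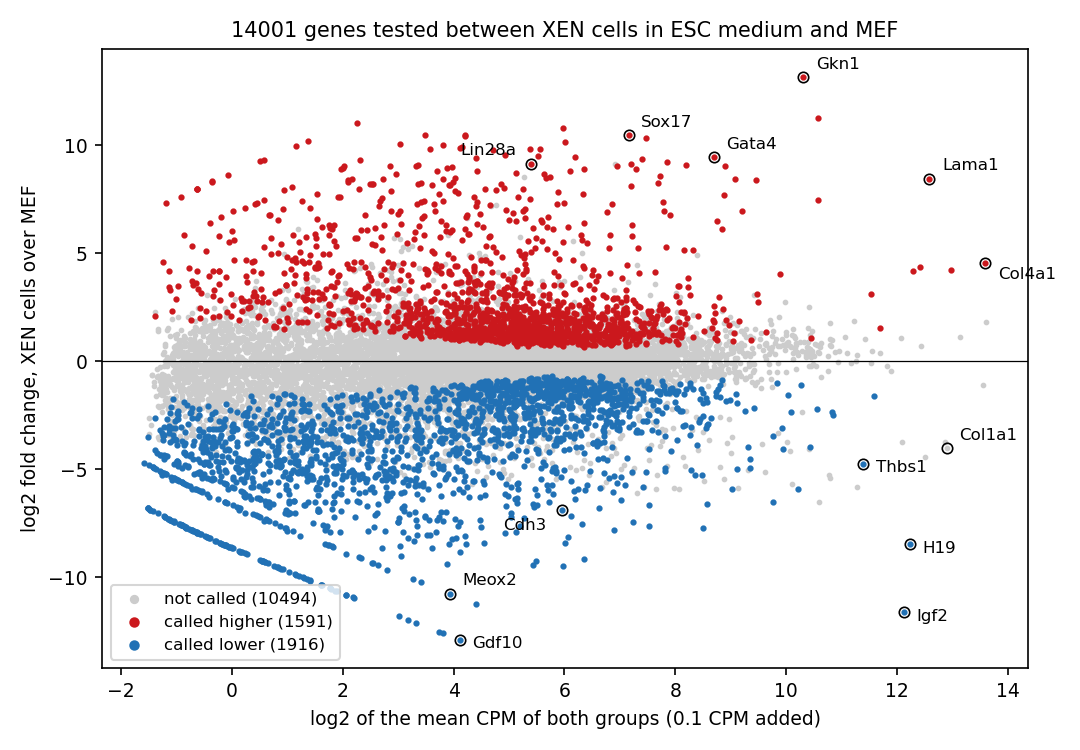
Each point is 1 gene, with the log2 of its mean CPM over both groups across the bottom and its log2 fold change, XEN cells over MEF, up the side; red points were called higher (1591), blue points lower (1916) and grey points not called. Lama1 and Col4a1 are seen at the upper right among the most abundant transcripts of XEN cells and Igf2 and H19 at the lower right, Col1a1 is grey, and the slanting blue streaks at the lower left are genes with no or very few counts in XEN cells.

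The number of calls depended on which library was in the comparison. It was 372, 692 and 562 without MEF 1, 2 and 3, and 3779, 6056 and 4834 without XEN 1, 2 and 7. Of the genes each of these tested, the share called was 2.57%, 4.80% and 3.92%, and 26.3%, 41.8% and 33.8%, against which the counts of list members without a library are to be read. In the full comparison and in all 6 of these leave-outs, 359 genes were called, 168 higher and 191 lower. Of the 228 called genes that the naming rule picks out, 79 kept their call without each library, and another 79 kept it without each XEN library and lost it without each MEF library. A call is described below as kept throughout where it held in all 6 leave-outs. For other calls, a loss without a MEF library is mostly not printed gene by gene.

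Calls also moved with transcript length. Among genes whose longest transcript had at most 1985 bases, 20.5% were called higher and 6.50% lower, with a median log2 fold change of 0.68. Among genes of at least 5299 bases, 4.96% were called higher and 23.4% lower, with a median of -0.65. Against the MEF mean, the median log2 ratio of the shortest genes was 0.37, 0.03 and 0.75 in XEN 1, 2 and 7, and that of the longest was -0.94, -0.33 and -1.04. A fit that takes the length trend out of each library was therefore run as an alternative, added after seeing the data. It called 3567 genes, 1904 higher and 1663 lower. Of the main calls, 2833 were called there too, all in the same direction, and 674 were not. Such a fit also removes any difference between the cells that goes with length, so it cannot measure the part of length alone.

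**Figure D2:**
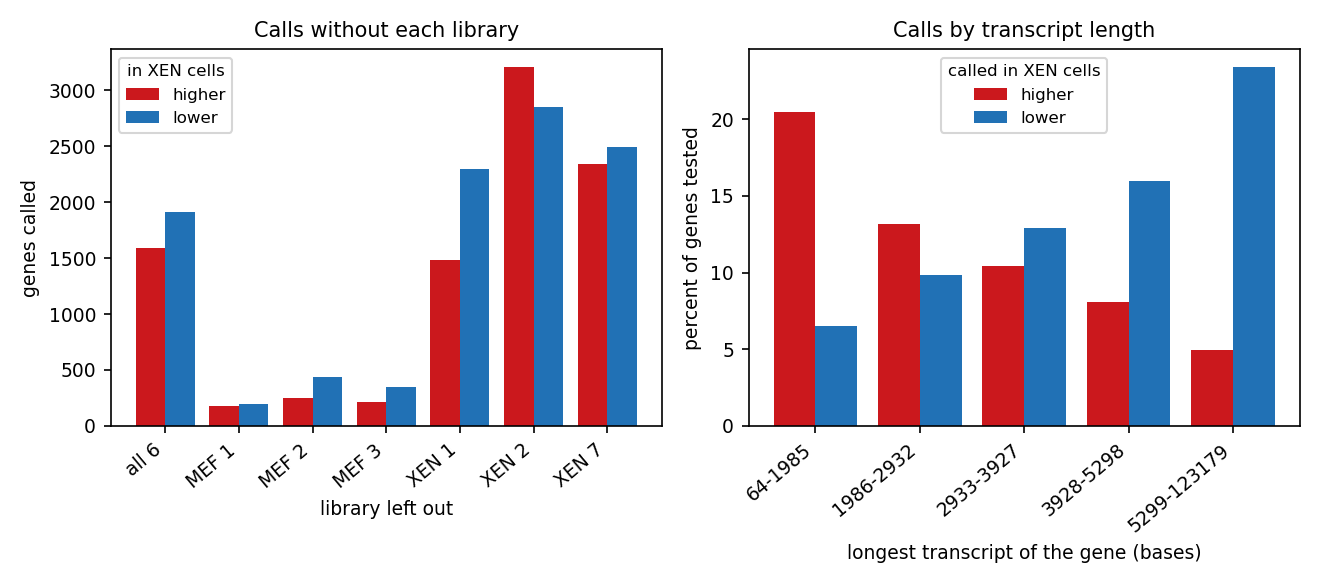
Left, bars give the genes called higher (red) and lower (blue) in XEN cells with all 6 libraries and without each in turn; right, bars give the percent of genes tested that were called in each of 5 classes of transcript length, in bases. The bars at the left are lowest where a MEF library is missing (372 to 692 calls in all), and at the right the higher calls go down from 20.5% to 4.96% and the lower calls go up from 6.50% to 23.4% with length.

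Most tested transcription factors of endoderm rose. Of 14 tested members of that list, 11 rose (11.4% of all genes did) and 1 fell (13.7% of all genes did). Their median log2 fold change was 8.69, against -0.03 over all genes. The list has 20 symbols, and 14 passed the filter on low counts. Members near 0 in MEF pass it only through XEN libraries, where they are high, so the counts and median lean towards a rise. The same limit holds for other lists below. Of lipoprotein and serum protein genes 13 of 24 passed, and of pluripotency genes 12 of 24. Germline and placental genes had 5 of 19 pass, and stomach lining genes 5 of 11. Gata4, a zinc finger factor that specifies primitive endoderm, was at 0.929, 1.43 and 1.3 CPM in MEF and at 655, 1483 and 351 CPM in XEN cells (log2 fold change 9.46, SE 0.77, adjusted p = 0.00269). Every XEN library lay far above every MEF library, and the call was kept throughout. Gata6, its close relative, was already present in MEF, at 10.9, 15.7 and 11.9 CPM, and reached 251, 402 and 152 CPM (4.44, SE 0.44). Sox17, an HMG-box factor of endoderm, stood at 227, 258 and 372 CPM in the XEN libraries and at no more than 0.339 CPM in MEF. Sox7, of the same subfamily, did not follow in every line: it was at 40.7 and 207 CPM in XEN 1 and 2 and at 0.47 CPM in XEN 7, within the MEF range of 0.387 to 0.56 CPM. Its call (7.49, SE 1.97, adjusted p = 0.0382) was lost without XEN 1 (adjusted p = 0.0538).

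Forkhead and nuclear receptor factors of gut and liver endoderm were on in all 3 lines. Foxa2, a forkhead factor that opens chromatin in endoderm, was at 0.0387, 0.301 and 0.295 CPM in MEF and at 104, 127 and 204 CPM in XEN cells (9.44, SE 0.77, adjusted p = 0.00268). Hnf4a, a nuclear receptor of visceral endoderm and liver, had 2 counts over the 3 MEF libraries and 17.3, 31 and 35.6 CPM in XEN cells, a ratio of 1275 (exact 95% counting interval 353 to 10534). The forkhead factor Foxq1 had one of the smallest adjusted p-values of all genes (9.51, SE 0.50, adjusted p = 0.00192), with 64.2, 77.1 and 134 CPM against 0.116 to 0.151 CPM. The calls of Foxa2, Hnf4a and Foxq1 were kept throughout. Elf3, an ETS factor of epithelia, was lowest in XEN 1 at 6.38 CPM and highest in XEN 7 at 93.4 CPM, above at most 0.0387 CPM in MEF. The member that fell was Prdm1, a zinc finger repressor, from 0.774, 0.978 and 0.707 CPM to 0, 0.0448 and 0.104 CPM (-3.71, SE 0.82, adjusted p = 0.0238). Members called higher and lower numbered 7 and 0 without each MEF library, 11 and 1 without XEN 1 or XEN 7, and 13 and 1 without XEN 2.

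A promoter of Hnf4a and of Foxa2 is shown because GATA factors rose with these genes and the sequence holds a GATA motif. The table has 2 starts for Hnf4a and 3 for Foxa2, and the motif was found at 1 of each. The motif was searched as AGATAA or TGATAA on both strands, 250 bases before to 50 after each start in RefSeq's table for GRCm38.p6. These spellings differ in their first base, so a site is counted once. Capitals mark the motif, and both sequences run 5′ to 3′ along the gene's strand, chr2:163506607-163506906 (plus strand) for Hnf4a and chr2:148045415-148045714 (minus strand) for Foxa2.
Hnf4a: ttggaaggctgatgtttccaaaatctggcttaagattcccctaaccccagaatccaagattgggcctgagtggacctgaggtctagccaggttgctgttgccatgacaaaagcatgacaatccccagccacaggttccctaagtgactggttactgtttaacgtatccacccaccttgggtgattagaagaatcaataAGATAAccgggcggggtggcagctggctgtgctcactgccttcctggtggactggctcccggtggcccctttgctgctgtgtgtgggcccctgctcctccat
Foxa2: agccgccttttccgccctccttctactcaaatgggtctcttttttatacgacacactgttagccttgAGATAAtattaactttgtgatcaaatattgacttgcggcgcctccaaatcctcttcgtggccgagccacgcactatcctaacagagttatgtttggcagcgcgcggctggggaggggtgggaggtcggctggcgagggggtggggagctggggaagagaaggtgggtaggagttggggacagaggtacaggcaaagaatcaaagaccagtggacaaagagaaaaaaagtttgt
The motif begins at base 199 of the first sequence and at base 68 of the second. It was found for 4 of the 13 endoderm factors with a promoter in the table and for 0 of 20 basement membrane genes. The share was 12% of tested genes with a promoter there, 14.5% of those called higher, 20.3% of those at least 4 log2 units higher, 11.8% of those called lower, and 21% of all genes in the table. A SOX motif, ATTGTT on both strands, was found for 7.1% of tested genes, 6.63% of those called higher and 7.68% of those called lower. A match is a stretch of letters and not a measured binding site.

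**Figure D3:**
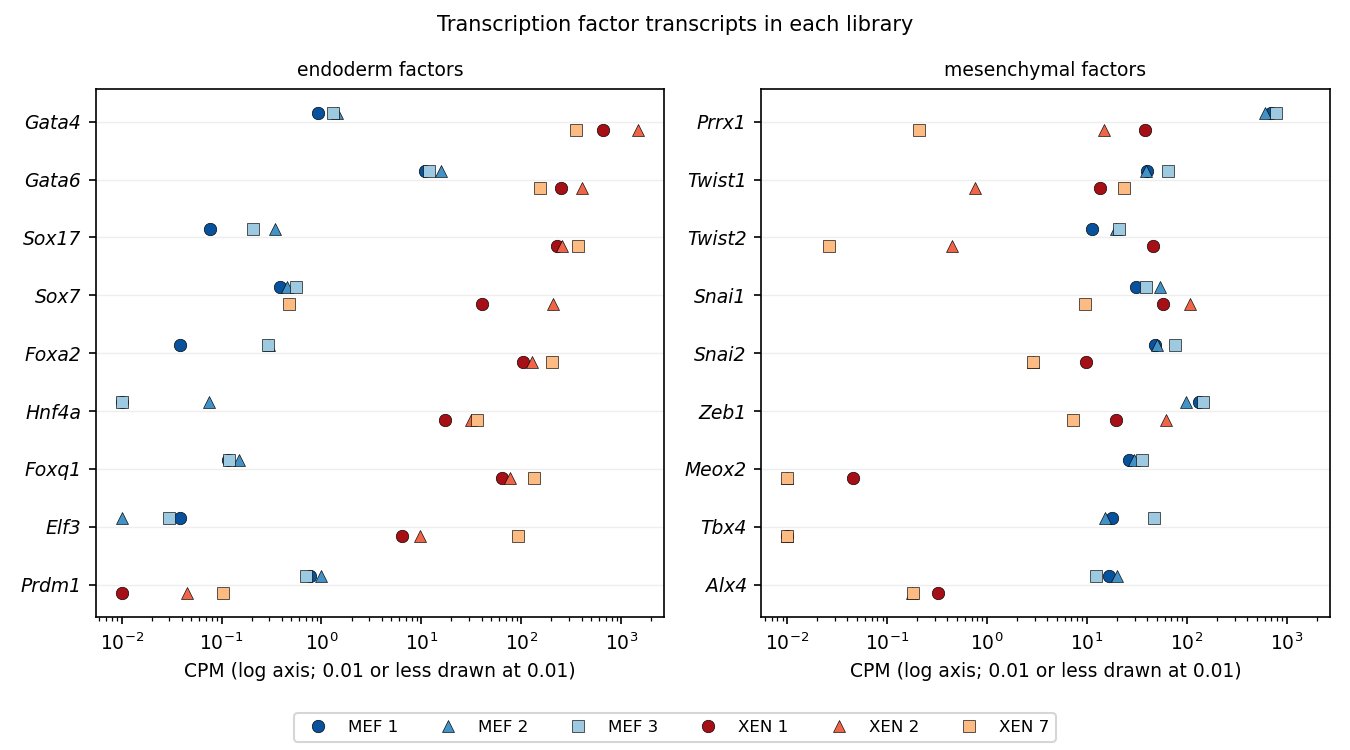
Points give the level of each gene in CPM (log axis) in each of the 3 MEF libraries (blue) and 3 XEN libraries (red to orange), for endoderm factors at the left and mesenchymal factors at the right. Gata4, Sox17, Foxa2, Hnf4a and Foxq1 are apart in every library, Sox7 in XEN 7 lies among the MEF points at 0.47 CPM, and Twist2 and Snai1 of XEN 1 lie above MEF.

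Calls on mesenchymal transcription factors were all in the other direction. Of 29 tested, 12 fell and 0 rose (median -2.89). Prrx1, a homeobox factor of limb and skin mesenchyme, was at 701, 602 and 784 CPM in MEF. In XEN cells it was at 38.2, 14.7 and 0.209 CPM (-5.24, SE 1.53, adjusted p = 0.04997). That call was lost without XEN 1 (adjusted p = 0.0557), without XEN 2 (0.099) and without each MEF library (0.118 to 0.133). Meox2, a homeobox factor of somites and limb muscle, had 26.2, 29.3 and 35.9 CPM in MEF and 1 count in all over the XEN libraries, a MEF to XEN ratio of 2553 (458 to 100893). Tbx4, a T-box factor of the hindlimb field, had 17.8, 15.3 and 46.4 CPM in MEF and 0 counts in XEN cells, at least 778-fold lower. Alx4, a homeobox factor of limb and face mesenchyme, fell from 16.7, 19.8 and 12.3 CPM to 0.321, 0.179 and 0.183 CPM (-6.08, SE 0.50). The calls of Meox2, Tbx4 and Alx4 were kept throughout.

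The factors known for driving cells from an epithelial to a mesenchymal state did not share 1 pattern. Snai2 fell from 48.2, 50.4 and 76.4 CPM to 9.77, 2.87 and 2.87 CPM (-3.44, SE 0.60, adjusted p = 0.0132). Its relative Snai1 was at 31.3, 53.4 and 39 CPM in MEF and 58.3, 107 and 9.5 CPM in XEN cells (0.55, SE 0.76, adjusted p = 0.611). Zeb1 and Twist1 were lower in each XEN library than in any MEF library and not called (adjusted p = 0.0841 and 0.209). Twist2 was at 45.8 CPM in XEN 1, above the 11.3 to 20.9 CPM of MEF, and at 0.448 and 0.0261 CPM in XEN 2 and 7. Its log2 fold change was -0.10 (adjusted p = 0.972), and -6.22 without XEN 1 (adjusted p = 0.0223). Members of the list called lower numbered 4, 6 and 5 without MEF 1, 2 and 3, and 16, 12 and 15 without XEN 1, 2 and 7, where 1 was also called higher without XEN 7.

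Of 35 tested Hox genes, which carry position along the body axis and limb, 12 fell and 1 rose (median -2.84). The posterior limb genes were among them: Hoxd13 was at 19, 18.7 and 56.3 CPM in MEF and at 0.138, 0 and 1.8 CPM in XEN cells (-5.44, SE 1.52, adjusted p = 0.0446), and Hoxd12 went from 2.67, 2.86 and 9.93 CPM to 0 counts, at least 153-fold lower. Hoxd13 lost its call without XEN 1 (adjusted p = 0.0846) and without each MEF library (0.107 to 0.152). The gene that rose was Hoxc13, from 0.31, 0.602 and 0.53 CPM to 3.03, 3.98 and 4.54 CPM (3.05, SE 0.50, adjusted p = 0.0114). Those called lower were 0, 1 and 2 without MEF 1, 2 and 3 and 19, 13 and 16 without XEN 1, 2 and 7.

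Basement membrane genes were called in both directions. Of 25 tested, 6 rose and 9 fell (median -0.68). Lama1, the laminin alpha chain of embryonic basement membranes, was at 35.3, 41.7 and 32 CPM in MEF and at 11168, 24112 and 1445 CPM in XEN cells (8.45, SE 1.25, adjusted p = 0.00862). Its partner chains were abundant in MEF and rose further: Lamb1 was at 558, 534 and 516 CPM in MEF and at 9066, 16939 and 2235 CPM in XEN cells (4.19, SE 0.81). Lamc1, the gamma chain, was at 515, 504 and 531 CPM and at 7859, 20899 and 2383 CPM (4.38, SE 0.87). For all 3 chains XEN 2 was highest and XEN 7 lowest, and no XEN library overlapped MEF. The same order held for the main type IV collagen chains. Col4a1 was at 1057, 1260 and 780 CPM in MEF and at 13141, 55406 and 2296 CPM in XEN cells (4.56, SE 1.21, adjusted p = 0.0391), and Col4a2 at 894, 985 and 666 CPM and at 9507, 34464 and 1811 CPM (4.22, SE 1.10). Both lost the call without XEN 1 (adjusted p = 0.0532 and 0.0524) and without each MEF library. The 3 laminin chains kept theirs without each XEN library and lost them without each MEF library. Their adjusted p without a MEF library was 0.0538 to 0.0617 for Lama1, 0.0824 to 0.089 for Lamb1 and 0.0871 to 0.0928 for Lamc1. Tinagl1, a secreted matrix protein related to tubulointerstitial nephritis antigen, rose from 11.5, 26.6 and 10.7 CPM to 817, 330 and 517 CPM (5.15, SE 0.60), kept throughout.

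Of 4 other basement membrane collagens tested, Col4a5, Col4a6 and Col18a1 fell and Col15a1 was not called (-2.83, adjusted p = 0.136). Col4a5 went from 143, 131 and 111 CPM to 8.72, 5.69 and 7.98 CPM (-4.04, SE 0.28, adjusted p = 0.0026), and Col18a1, the source of endostatin, from 196, 125 and 170 CPM to 4.54, 1.12 and 1.8 CPM (-5.98, SE 0.63), both kept throughout. Hspg2, which encodes perlecan, was at 1592, 1770 and 1768 CPM in MEF and 762, 912 and 604 CPM in XEN cells (-1.11, SE 0.31, adjusted p = 0.0443). It lost the call without XEN 1 (adjusted p = 0.0827) and turned to 0.09 with the length trend removed (adjusted p = 0.83). Nidogen 1 and Sparc, a collagen-binding glycoprotein, were not called: Nid1 was at 1355, 9726 and 60.6 CPM in XEN cells, on both sides of the MEF values of 1126, 1090 and 980 CPM (adjusted p = 0.358), and Sparc at 22535, 30183 and 5034 CPM against 5436, 5107 and 6181 CPM (adjusted p = 0.109). Without XEN 7 both were called higher (2.46 and 2.38 on the log2 scale, adjusted p = 0.0483 and 0.00722). For the list, members called higher and lower were 1 and 2 without each MEF library, 4 and 6 without XEN 1, 10 and 9 without XEN 2, and 9 and 10 without XEN 7. With the length trend removed they were 6 and 3, and the list's longest transcripts had a median of 6536 bases against 3407 over all genes.

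Interstitial matrix genes of fibroblasts lay lower in XEN cells, by amounts that differed from line to line. Groups did not overlap for 29 of 30 tested members (53.3% of all genes), 8 fell and 0 rose, and the median was -4.28. Col1a1, a chain of type I collagen, was at 12934, 12930 and 17288 CPM in MEF and at 2403, 137 and 0.287 CPM in XEN cells. XEN 1 held about an order of magnitude more than XEN 2, and XEN 7 next to none, and the gene was not called (-4.03, SE 2.23, adjusted p = 0.217; -7.67 and 0.0862 without XEN 1). Col3a1, the type III chain, followed the same order, at 1470, 33.6 and 0.0522 CPM against 12823, 8709 and 11979 CPM (-4.41, adjusted p = 0.22; -9.33 and 0.0622 without XEN 1). Fibronectin, Fn1, was at 9408, 7676 and 7311 CPM in MEF and 1585, 134 and 41 CPM in XEN cells, not called with all libraries (-3.73, adjusted p = 0.0883) and called without XEN 1 (-6.48, adjusted p = 0.01). Postn, a matrix protein of periosteum and healing tissue, was at 489 CPM in XEN 1 and at 0.806 and 0.0261 CPM in XEN 2 and 7, with 1613, 1014 and 2417 CPM in MEF. Its log2 fold change was -3.30 (adjusted p = 0.355), and -12.01 without XEN 1 (adjusted p = 0.0117).

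Thbs1, thrombospondin 1, was even among the XEN lines and fell from 5815, 5476 and 4226 CPM to 137, 174 and 237 CPM (-4.75, SE 0.45, adjusted p = 0.00387), kept throughout. Col12a1, a fibril-associated collagen, went from 2435, 2251 and 2330 CPM to 101, 4.79 and 5.17 CPM (-5.92, SE 1.44; -8.80 and adjusted p = 0.00358 without XEN 1), and elastin, Eln, from 166, 152 and 579 CPM to 4.91, 0.179 and 0 CPM (-7.42, adjusted p = 0.0408; 0.0605 without XEN 2; -11.86 and 0.0107 without XEN 1). Members of the list called lower were 2 without each MEF library, 17 without XEN 1, 4 without XEN 2, 16 without XEN 7 and 5 with the length trend removed.

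**Figure D4:**
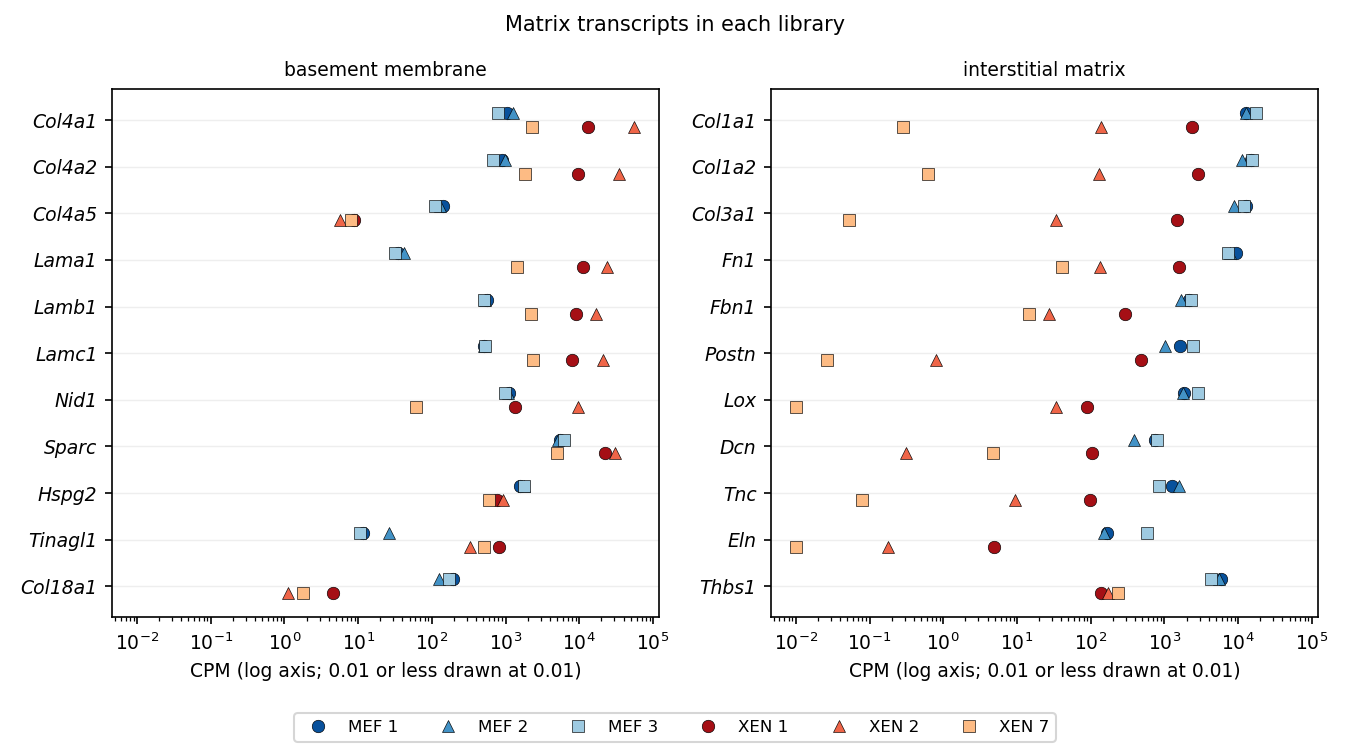
Points give the level of each gene in CPM (log axis) in the 3 MEF libraries (blue) and 3 XEN libraries (red to orange), with basement membrane genes at the left and interstitial matrix genes at the right. Laminin and main type IV collagen transcripts lie above MEF in all 3 XEN lines, highest in XEN 2, whereas fibrillar collagen transcripts spread from 2403 CPM in XEN 1 to 0.287 CPM in XEN 7 for Col1a1.

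Genes that fold, modify and export collagen and other secreted proteins rose more often than they fell, with 9 of 27 tested higher and 2 lower (median 1.06). P4ha2, a prolyl hydroxylase of collagen, went from 110, 110 and 91 CPM to 664, 767 and 916 CPM (2.98, SE 0.29, adjusted p = 0.00397), kept throughout. Xbp1, the transcription factor of the unfolded protein response, was even in both groups, at 86.1, 84.3 and 82.4 CPM in MEF and 200, 221 and 218 CPM in XEN cells (1.40, SE 0.20). Sdf2l1, an endoplasmic reticulum chaperone partner, rose from 6.62, 15.2 and 11.1 CPM to 68.5, 55.5 and 135 CPM (3.05, SE 0.50). The collagen chaperone Serpinh1 was at 7441 and 8682 CPM in XEN 1 and 2 and at 1309 CPM in XEN 7, below the MEF range of 2427 to 3079 CPM, and was not called (adjusted p = 0.278; 0.0121 without XEN 7). Fkbp10, a prolyl isomerase of collagen I folding, fell from 403, 464 and 382 CPM to 152, 239 and 208 CPM (adjusted p = 0.0428). Members called higher were 1, 2 and 1 without MEF 1, 2 and 3 and 8, 11 and 15 without XEN 1, 2 and 7.

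Of 24 tested receptors for matrix, 4 rose and 9 fell (median -1.33), and receptors of laminin were found in both directions. Itga6, the alpha chain of laminin receptors, was at 26.1, 26.6 and 25.7 CPM in MEF and at 177, 424 and 148 CPM in XEN cells (3.31, SE 0.46, adjusted p = 0.00753). Itga3, another laminin-binding chain, rose from 18.9, 28.4 and 20.2 CPM to 190, 212 and 149 CPM (3.09, SE 0.28), kept throughout. Itgb4, which pairs with the alpha 6 chain, was uneven, at 415, 5.95 and 47.8 CPM against 3.37, 3.61 and 3.12 CPM (5.60, SE 1.51, adjusted p = 0.0409; 0.0537 without XEN 1). Itga11, a fibroblast receptor for fibrillar collagen, fell from 85.3, 38.1 and 85.8 CPM to 0.688, 0.269 and 1.12 CPM (-6.54, SE 0.69), kept throughout, Dag1, the laminin receptor dystroglycan, from 329, 295 and 387 CPM to 98.1, 130 and 122 CPM (-1.47, SE 0.25), and Itga1, a receptor for collagen, from 17.8, 21.3 and 22.4 CPM to 1.28, 0.134 and 1.12 CPM (-4.51, SE 0.81). The common beta chain Itgb1 was not called (-1.19, adjusted p = 0.0893). Members called higher and lower were 1 and 1, 2 and 3, and 1 and 2 without MEF 1, 2 and 3, and 3 and 9, 4 and 11, and 4 and 11 without XEN 1, 2 and 7.

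Of 25 tested junction and keratin genes of epithelia, 14 rose and 2 fell (median 4.90). Krt8, a keratin of simple epithelia, was at 3.45, 6.51 and 3.12 CPM in MEF and at 799, 499 and 2896 CPM in XEN cells (8.40, adjusted p = 0.0059), kept throughout, and its partner Krt18 at 2.59, 5.42 and 1.86 CPM and at 285, 84.9 and 2872 CPM (8.44, SE 1.67). Both have pseudogene copies, so that their counts are uncertain. Ocln, which encodes the tight junction protein occludin, rose from 0.116, 0.188 and 0.0884 CPM to 7.75, 20.4 and 20 CPM (6.97, SE 0.67). Epcam, an epithelial adhesion protein, reached 33.7, 8.91 and 18.4 CPM (8.21, SE 1.05) and Dsp, the desmosomal plaque protein desmoplakin, 20.7, 44.4 and 239 CPM (6.23, SE 1.10). E-cadherin was a gene of XEN 7 alone: Cdh1 was at 214 CPM there, at 2.52 and 0.0895 CPM in XEN 1 and 2 and at 1.43, 0.602 and 2.27 CPM in MEF, and it was not called (adjusted p = 0.123). The keratin Krt19 and the tight junction gene Cldn6 also stood highest in XEN 7, at 1911 and 241 CPM, against at most 28.4 and 4.36 CPM in the other XEN lines. P-cadherin, Cdh3, fell from 119, 129 and 119 CPM to 2.48, 0.313 and 0.287 CPM (-6.86, adjusted p = 0.00842). Junction and keratin genes called higher were 2, 4 and 3 without MEF 1, 2 and 3, 12 without XEN 1, 22 without XEN 2 and 14 without XEN 7.

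Calls on surface and contractile genes of fibroblasts were all in the lower direction, and 9 members of each list were not called. Of 14 tested surface and cadherin genes, 5 fell and 0 rose (median -2.66), and of 17 tested contractile genes, 8 fell and 0 rose (median -2.36). S100a4, a calcium-binding protein of fibroblasts, went from 478, 836 and 575 CPM to 46.9, 30.7 and 46 CPM (-3.87, SE 0.38, adjusted p = 0.00397), kept throughout. Cdh11, the mesenchymal cadherin, went from 1032, 793 and 1249 CPM to 37.1, 11.1 and 1.54 CPM (-5.89, SE 1.18). Mylk, the myosin light chain kinase, dropped furthest of the contractile genes, from 95.9, 140 and 148 CPM to 0.551, 0.0895 and 0.417 CPM (-8.41, SE 0.68), kept throughout. Smooth muscle actin, Acta2, was at 222, 31.3 and 1.72 CPM in XEN cells against 2724, 5219 and 2239 CPM in MEF and missed the threshold (-5.27, SE 1.64, adjusted p = 0.0592; -7.64 and 0.0286 without XEN 1). Vimentin stayed abundant in XEN cells, at 1679, 940 and 1732 CPM against 3363, 5259 and 5377 CPM (-1.62, SE 0.45, adjusted p = 0.0437), and lost its call without XEN 1 (0.0742) or XEN 2 (0.0707). Surface genes called lower were 3 without each MEF library and 7, 4 and 5 without XEN 1, 2 and 7, and contractile genes 1, 2 and 2 without MEF 1, 2 and 3 and 12, 5 and 8 without XEN 1, 2 and 7.

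Of 15 tested parietal endoderm genes, 6 rose and 2 fell (median 2.07). Stra6, the receptor that takes retinol into cells, was at 0.581, 0.602 and 0.442 CPM in MEF and at 320, 426 and 130 CPM in XEN cells (9.12, SE 0.62, adjusted p = 0.0026), and Srgn, the proteoglycan of secretory granules, at 1.55, 2.18 and 1.91 CPM and at 1040, 1585 and 216 CPM (9.02, SE 0.93). Both calls were kept throughout. Pth1r, the parathyroid hormone receptor that marks parietal endoderm, was at 763 and 1078 CPM in XEN 1 and 2 and at 23.6 CPM in XEN 7, next to the MEF values of 15.9, 14.7 and 23.6 CPM (5.15, SE 1.28, adjusted p = 0.0324; 0.0569 without XEN 1). Thrombomodulin, Thbd, had the same order of lines, at 218, 612 and 4.12 CPM against 61.7 to 72.2 CPM, and was not called (adjusted p = 0.274). Among the members that fell, Plau, the protease urokinase, went from 47, 66.8 and 51.7 CPM to 2.57, 1.07 and 0.6 CPM (-5.24, SE 0.63), kept throughout. Parietal endoderm genes called higher were 2, 3 and 2 without MEF 1, 2 and 3 and 5, 6 and 11 without XEN 1, 2 and 7.

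Nutrient uptake in visceral endoderm runs through the scavenger receptors megalin and cubilin and their adaptors. Of 15 tested endocytic genes, 4 rose and 0 fell (median 1.19). Lrpap1, the chaperone of megalin-family receptors, rose from 116, 98.4 and 120 CPM to 1476, 2122 and 1718 CPM (4.05, SE 0.33, adjusted p = 0.00269), kept throughout. Cubn, cubilin, was at 130 and 365 CPM in XEN 1 and 2 and at 2.43 CPM in XEN 7, below the MEF values of 3.64, 3.69 and 4.01 CPM (5.50, SE 1.54, adjusted p = 0.0448), and lost its call without XEN 1 (0.0679) or XEN 2 (0.0605). Megalin itself, Lrp2, was at 9.36, 12.1 and 12 CPM against 5.19, 5.38 and 2.47 CPM (1.43, adjusted p = 0.0548), and the endocytic adaptor Dab2 at 671, 1029 and 227 CPM against 187, 149 and 220 CPM (1.85, adjusted p = 0.0528). Endocytic genes called higher were 2 without each MEF library, 4, 7 and 8 without XEN 1, 2 and 7, and 9 with the length trend removed. Of 30 lysosomal genes, 8 rose and 3 fell (median 0.75), led by the protease cathepsin H, Ctsh, from 13.7, 11.2 and 10.5 CPM to 563, 284 and 479 CPM (5.30, SE 0.39), kept throughout. Cathepsin L, Ctsl, went from 642, 578 and 724 CPM to 5668, 6321 and 3895 CPM (3.09, SE 0.40). Lysosomal genes called higher were 2 without each MEF library and 6, 11 and 16 without XEN 1, 2 and 7.

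Of 13 tested lipoprotein and serum protein genes, 6 rose and 0 fell (median 4.17). Ttr, the thyroxine carrier, was at 0.271, 0.263 and 0.118 CPM in MEF and at 64.8, 51.7 and 6.57 CPM in XEN cells (7.60, SE 1.06, adjusted p = 0.00753). Pla2g12b, a protein of lipoprotein assembly, reached 36.5, 72.7 and 46.6 CPM from at most 0.116 CPM (9.76, SE 0.83), kept throughout. Alpha-fetoprotein was unevenly spread: Afp was at 2.39, 0.403 and 103 CPM in XEN 1, 2 and 7, with 3 counts over MEF, a ratio of 1406 (481 to 6821), and it did not pass the filter on low counts without XEN 7. Mttp, which loads lipid onto lipoproteins, stood highest in XEN 2, at 325 CPM, and Apob, the lipoprotein backbone, in XEN 7, at 48.9 CPM; neither was called. Members called higher were 3, 4 and 2 without MEF 1, 2 and 3 and 7, 8 and 6 without XEN 1, 2 and 7. Transcripts of stomach lining proteins were among the largest differences of the comparison: Gkn2, gastrokine 2, was at 1.32, 1.32 and 1.24 CPM in MEF and at 1353, 297 and 7464 CPM in XEN cells (11.28, SE 1.60, adjusted p = 0.0079), and Gkn1 at 0.271, 0.188 and 0.412 CPM and at 295, 14.4 and 7281 CPM (13.14, SE 2.79). Of the 5 genes of that list tested, 4 rose with all libraries, 0 did without each MEF library and 4, 5 and 4 did without XEN 1, 2 and 7. The list's median was 11.05, and 7.80 with 2 genes at 0 in MEF set to their bound.

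Of 15 retinoid genes 2 rose and 3 fell, close to the shares of all genes (11.4% and 13.7%). Besides Stra6, Cyp26a1, which degrades retinoic acid, rose from at most 0.113 CPM to 1.61, 33.7 and 7.96 CPM (7.90, SE 1.55, adjusted p = 0.0172). Its relative Cyp26b1 fell from 30.4, 25.3 and 21.1 CPM to 3.44, 2.55 and 0.209 CPM (-3.59, SE 0.93; adjusted p = 0.0596 without XEN 2). Members called higher were 1 without each MEF library and 3, 4 and 3 without XEN 1, 2 and 7, and those called lower were 0 without each MEF library and 5, 1 and 4.

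**Figure D5:**
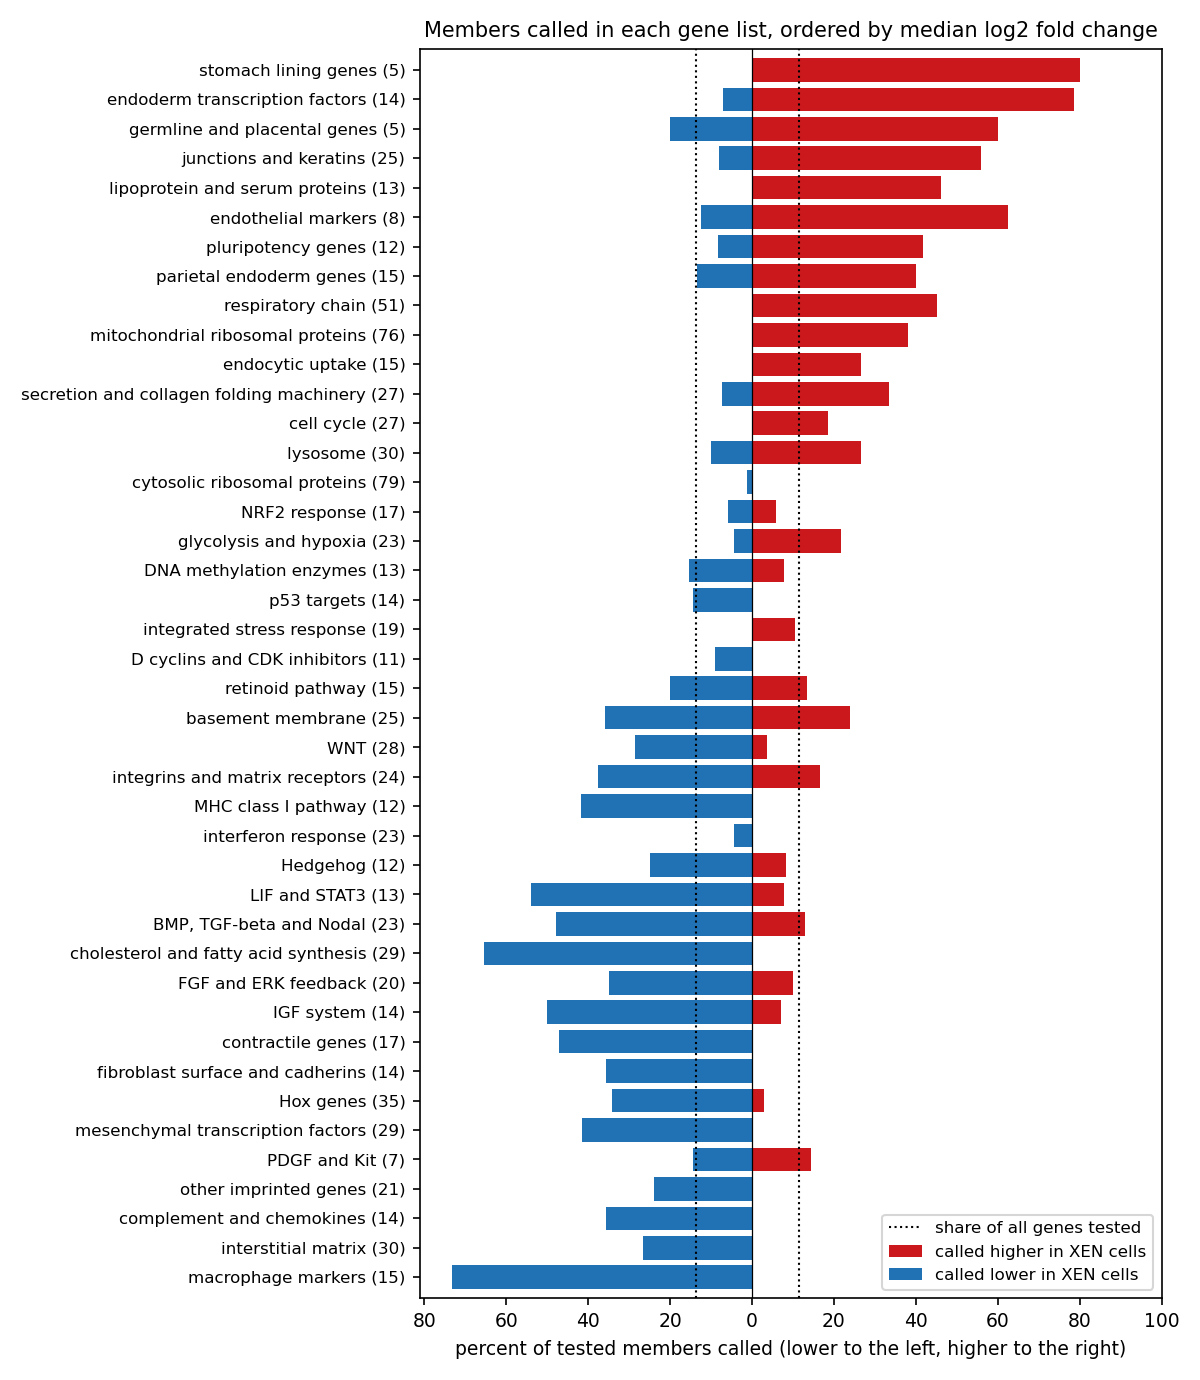
Bars give the percent of tested members of each gene list (number tested in brackets) that were called higher in XEN cells, to the right, or lower, to the left, with lists ordered by median log2 fold change and dotted lines at the shares of all genes (11.4% higher, 13.7% lower). Endoderm factors, junction genes and stomach lining genes stand at the top, cholesterol synthesis has 19 of 29 members lower and 0 higher, and interstitial matrix has few calls for its place in the order.

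Signalling receptors and ligands differed member by member. Kit, the stem cell factor receptor, was at 1.39, 1.35 and 1.8 CPM in MEF and at 270, 375 and 48.5 CPM in XEN cells (7.30, SE 0.87, adjusted p = 0.0059), kept throughout, while its ligand Kitl fell from 103, 99.7 and 115 CPM to 14.9, 16.5 and 2.69 CPM (-3.17, SE 0.66). Pdgfra, the receptor that marks primitive endoderm in the embryo and mesenchyme elsewhere, was at 750, 636 and 514 CPM in MEF and at 288, 566 and 25.5 CPM in XEN cells (-1.06, 95% interval -3.28 to 1.16). Of 20 FGF and ERK feedback genes, 2 rose and 7 fell (median -2.04). Receptors 3 and 4 rose, with Fgfr3 from 4.49, 4.74 and 9.34 CPM to 26.9, 114 and 17 CPM (3.14, SE 0.81) and Fgfr4 from 0.503, 0.527 and 0.324 CPM to 28, 56.2 and 1.72 CPM (6.03, SE 1.26). Fgfr2 fell from 81.2, 64.5 and 98 CPM to 19.8, 4.7 and 2.19 CPM (-3.13, SE 0.82; adjusted p = 0.0767 without XEN 2), and Fgfr1 was at 92.3, 4.21 and 30.5 CPM against 286, 242 and 316 CPM (-2.66, adjusted p = 0.0899; 0.0374 without XEN 1). FGF genes called lower were 0, 1 and 1 without MEF 1, 2 and 3 and 10, 9 and 9 without XEN 1, 2 and 7.

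Of 23 tested genes of the BMP, TGF-beta and Nodal pathways, 3 rose and 11 fell (median -1.69). Bmp2 rose from 1.24, 0.715 and 3.71 CPM to 36.7, 66.2 and 15 CPM (4.42, SE 0.86, adjusted p = 0.0167), whereas the related ligand Bmp4 fell from 35.4, 40.6 and 51.1 CPM to 2.8, 3.36 and 2.9 CPM (-3.75, SE 0.30), kept throughout. Gdf10, another ligand of the family, was at 34.7, 32.8 and 35.8 CPM in MEF and at 0 counts in XEN cells, at least 950-fold lower. The BMP antagonist Grem1 fell from 17.3, 30.6 and 23.1 CPM to 0.0459, 0.224 and 0 CPM (-8.06, SE 1.12). Noggin, another antagonist, stood high in XEN 1 and 2, at 38.7 and 88.6 CPM, and within the MEF range in XEN 7, at 1.88 CPM (Nog, 4.68, adjusted p = 0.0405; 0.0646 without XEN 1 and 0.0543 without XEN 2). Id1, a direct BMP target, was at 47.2, 126 and 167 CPM in MEF and 21.5, 10.2 and 353 CPM in XEN cells. It was not called (0.26, adjusted p = 0.893), and without XEN 7 it was called lower (-2.66, adjusted p = 0.033). Genes of these pathways called lower were 2, 8 and 4 without MEF 1, 2 and 3 and 10, 14 and 15 without XEN 1, 2 and 7.

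Ihh, the hedgehog ligand of visceral endoderm, was at 0.116, 0.188 and 0.265 CPM in MEF and at 56.4, 72.5 and 13 CPM in XEN cells (7.96, SE 0.86, adjusted p = 0.00467), while 3 members of the pathway fell: Smo, the signal transducer, went from 179, 167 and 204 CPM to 56.6, 59.3 and 47 CPM (-1.69, SE 0.22), Cdon, a co-receptor, from 361, 203 and 476 CPM to 14, 4.84 and 9.5 CPM (-5.13, SE 0.57) and Gli3, a transcription factor of the pathway, from 89.9, 78.6 and 122 CPM to 6.15, 1.21 and 2.58 CPM (-4.80, SE 0.66). The calls of Ihh, Cdon and Gli3 were kept throughout. Gli1, a target of the pathway, was at 11.1 CPM in XEN 1 and at 0.224 and 0 CPM in XEN 2 and 7, against 3.33, 2.56 and 3.27 CPM in MEF. Its value was 0.36 (adjusted p = 0.894), and -4.84 without XEN 1 (adjusted p = 0.0487). The receptor Ptch1 (-1.41, adjusted p = 0.214) and the co-receptor Gas1 (-4.56, adjusted p = 0.117; -7.80 and 0.0381 without XEN 1) were not called. Over 12 tested hedgehog genes 1 rose, 3 fell and 8 were not called. Members called lower were 2, 3 and 3 without MEF 1, 2 and 3 and 6, 5 and 4 without XEN 1, 2 and 7.

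Of 28 WNT genes 1 rose and 8 fell (median -1.23). The secreted antagonist Sfrp1 fell from 833, 737 and 675 CPM to 18.9, 2.6 and 0.652 CPM (-6.61, SE 1.34, adjusted p = 0.0189), and the ligand Wnt5a from 67.1, 74.4 and 86.5 CPM to 10.4, 0.761 and 5.69 CPM (-3.69, SE 0.87; adjusted p = 0.0516 without XEN 7). The 1 that rose was the ligand Wnt7b, at 13.7, 45.6 and 0.417 CPM against at most 0.155 CPM (7.27, SE 1.68). WNT genes called lower were 0 without each MEF library and 12, 9 and 7 without XEN 1, 2 and 7. Among receptor subunits that carry LIF and interleukin 6 signals, Il6st, the shared subunit gp130, fell from 1378, 1208 and 1005 CPM to 54.8, 109 and 56.7 CPM (-3.97, SE 0.41, adjusted p = 0.00434), kept throughout. Il6ra fell as well (-2.63, SE 0.64). Lifr was not called, at 251, 550 and 50.1 CPM against 76.3, 58.4 and 67.8 CPM (2.12, adjusted p = 0.0879, and 0.00462 without XEN 7). Jak1 and Stat3, the kinase and transcription factor downstream, fell by 3.02 (SE 0.37) and by 1.36 (SE 0.29) on the log2 scale. The LIF and STAT3 list had 7 of 13 lower and 1 higher, the ligand Lif (2.21, SE 0.49). Its lower calls were 2, 2 and 3 without MEF 1, 2 and 3 and 7, 6 and 7 without XEN 1, 2 and 7.

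Fetal growth transcripts were among the most abundant of MEF and far lower in XEN cells. H19, an imprinted noncoding RNA, was at 8692, 10460 and 9754 CPM in MEF and at 34.4, 12.9 and 30 CPM in XEN cells (-8.48, SE 0.69, adjusted p = 0.00268), kept throughout. Igf2, the growth factor gene next to it, was at 8266, 8450 and 10074 CPM and at 4.95, 3.22 and 0.0261 CPM. Of 14 genes of the IGF system 7 fell and 1 rose (median -2.19); the 1 that rose was Igf2bp1, an RNA-binding protein, from 46.1, 48.7 and 35.3 CPM to 129, 303 and 368 CPM (2.69, SE 0.44). Of 21 other imprinted genes 5 fell and 0 rose (median -3.11). Grb10, an adaptor that restrains growth factor receptors, fell from 1618, 1726 and 1778 CPM to 29.6, 21.6 and 2.11 CPM (-6.53, SE 1.04, adjusted p = 0.0105). Dlk1, a surface protein of fetal mesenchyme, was at 44.1 CPM in XEN 1 and at 0.269 and 0 CPM in XEN 2 and 7 against 596, 649 and 908 CPM in MEF, not called with all libraries (adjusted p = 0.129) and called without XEN 1 (-12.51, adjusted p = 0.00808). Lower calls of the IGF list were 2, 4 and 2 without MEF 1, 2 and 3 and 8, 7 and 7 without XEN 1, 2 and 7. Those of the other imprinted genes were 1, 2 and 1, and 10, 9 and 7.

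Of 12 tested pluripotency genes, 5 rose and 1 fell (median 2.23). Lin28a, an RNA-binding protein of early embryonic cells, was at 0.155, 0.151 and 0.147 CPM in MEF and at 78.1, 110 and 64.7 CPM in XEN cells (9.14, SE 0.38, adjusted p = 0.000996). Sall4, a zinc finger factor of inner cell mass and primitive endoderm, reached 71.7, 159 and 74.1 CPM (8.47, SE 0.54) and L1td1, an RNA-binding protein of stem cells, 78, 99.8 and 31.3 CPM (8.70, SE 0.89), each from under 0.35 CPM. Tfcp2l1, a factor of naive pluripotency, rose from 1.9, 1.35 and 2.27 CPM to 34.5, 44.5 and 56.7 CPM (4.68, SE 0.38). These 4 calls were kept throughout. The core factors were not called: Nanog was at 0.505, 0.224 and 2.43 CPM in XEN cells against 0.929, 0.941 and 1.09 CPM in MEF (adjusted p = 0.882), Pou5f1, which encodes Oct4, at 8.99, 2.82 and 0.157 CPM against at most 0.116 CPM and not tested with all libraries (6.73, adjusted p = 0.00549 without XEN 7), and Sox2 at 7.25, 3.04 and 0 CPM against 1.66, 1.92 and 3.8 CPM (adjusted p = 0.81). The 1 that fell was Klf2, from 21.2, 17.6 and 47.5 CPM to 2.43, 2.46 and 2.9 CPM (-3.40, SE 0.49). Pluripotency genes called higher were 4 without each MEF library and 5, 6 and 7 without XEN 1, 2 and 7.

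Of 5 tested germline and placental genes 3 rose and 1 fell. Trap1a, an X-linked gene expressed in trophoblast and testis, had the smallest adjusted p of the comparison, with 0.232, 0.339 and 0.265 CPM in MEF and 322, 345 and 393 CPM in XEN cells (10.35, SE 0.36, adjusted p = 0.00069). Tex19.1, a germ cell gene, was uneven at 7.57, 1.61 and 39.3 CPM, with 1 count over MEF, a ratio of 1789 (321 to 70688). The 1 that fell was Ddx4, another germ cell gene, from 15.9, 16.7 and 7.19 CPM to 0.138, 0 and 0.0261 CPM (-7.84, SE 1.04, adjusted p = 0.00693). Members called higher were 2 without each MEF library and 3, 5 and 3 without XEN 1, 2 and 7. Of 13 DNA methylation enzymes, Dnmt3b, a de novo methyltransferase, rose from 3.6, 2.93 and 3.74 CPM to 16.4, 38.5 and 30.8 CPM (3.12, SE 0.41, adjusted p = 0.00693), and its relative Dnmt3a fell from 95.1, 70.4 and 121 CPM to 24.7, 51.4 and 37.9 CPM (-1.27, SE 0.35, adjusted p = 0.0428). The list had 1 higher and 2 lower calls, close to the shares of all genes (11.4% and 13.7%). Without 1 library it had 0 to 2 higher and 0 to 4 lower.

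Most genes of sterol and fatty acid synthesis fell. Of 29 tested genes 19 fell and 0 rose (median -1.70), against 13.7% and 11.4% of all genes. Lss, lanosterol synthase, went from 155, 165 and 103 CPM to 23.7, 22 and 14.3 CPM (-2.76, SE 0.31, adjusted p = 0.00534), and Hsd17b7, a later enzyme of the pathway, from 92.5, 92.9 and 72.4 CPM to 11.9, 14.1 and 7.9 CPM (-2.86, SE 0.30), both kept throughout. Srebf2, the transcription factor that drives these genes, fell from 346, 335 and 290 CPM to 139, 134 and 94.7 CPM (-1.34, SE 0.25). Idi1, an isomerase early in the pathway, fell from 250, 253 and 166 CPM to 32.9, 12 and 42.9 CPM (-2.86, SE 0.52). Fasn, fatty acid synthase, was not called (-0.53, adjusted p = 0.256). Lower calls were 4, 5 and 8 without MEF 1, 2 and 3, 17, 20 and 22 without XEN 1, 2 and 7, and 19 with the length trend removed.

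Respiratory chain and mitochondrial ribosomal protein genes were higher, by modest amounts and with the largest values in XEN 7. Of 51 respiratory chain genes 23 rose and 0 fell (median 1.43), and of 76 mitochondrial ribosomal protein genes 29 rose and 0 fell (median 1.32). Cox6a1, a subunit of cytochrome oxidase, was at 61.1, 128 and 117 CPM in MEF and at 437, 265 and 714 CPM in XEN cells (2.28, SE 0.50, adjusted p = 0.0227), and Mrpl12, of the large mitochondrial ribosomal subunit, at 27.4, 46.1 and 31.6 CPM and at 132, 79.9 and 511 CPM (2.86, SE 0.76). Without each MEF library 0 members of either list were called. The respiratory chain calls were 16, 43 and 30 without XEN 1, 2 and 7, and the mitochondrial ribosomal calls 26, 65 and 35. These are short genes, with median longest transcripts of 1232 and 1866 bases against 3407 over all genes. With the length trend removed, 16 and 24 were called higher and the medians were 0.63 and 0.94. Cytosolic ribosomal protein genes, which are short too (median 1059 bases) and share reads with many pseudogenes, had 1 of 79 called lower and 0 higher (median 0.74, and -0.01 with the length trend removed). They summed to 62524, 72562 and 62426 CPM in MEF and to 79564, 48567 and 172561 CPM in XEN cells, and 22 were called higher without XEN 2, where 22.1% of all genes were.

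Of 27 cell cycle genes 5 rose and 0 fell (median 0.84). The calls were on licensing and replication genes: Cdt1, which loads the replicative helicase, went from 11.8, 20 and 16.3 CPM to 60.2, 89 and 95.5 CPM (2.41, SE 0.32, adjusted p = 0.00699), kept throughout, and Mcm2, a helicase subunit, from 57, 82.2 and 58.3 CPM to 150, 208 and 198 CPM (1.56, SE 0.27). The proliferation marker Mki67 overlapped between groups (0.10, adjusted p = 0.862). Ccnd2, a D-type cyclin, was the only 1 of 11 D cyclins and inhibitors called, falling from 602, 615 and 517 CPM to 134, 239 and 138 CPM (-1.70, SE 0.32). Cell cycle genes called higher were 1, 2 and 1 without MEF 1, 2 and 3 and 7, 7 and 6 without XEN 1, 2 and 7. Of 23 genes of glycolysis and hypoxia 5 rose and 1 fell. Slc2a3, a high-affinity glucose transporter, was at 9.25, 8.77 and 12.1 CPM in MEF and at 90.8, 407 and 2996 CPM in XEN cells (6.94, SE 1.44, adjusted p = 0.02), and Hk2, a hexokinase, rose from 30.5, 37.4 and 23.9 CPM to 108, 138 and 93.1 CPM (1.95, SE 0.27). The glucose transporter Slc2a1 and the enzymes Ldha and Pgk1 were not called. Higher calls were 1, 2 and 1 without MEF 1, 2 and 3 and 4, 5 and 6 without XEN 1, 2 and 7.

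The remaining stress lists were near the background. Of 14 p53 targets 2 fell and 0 rose, of 17 NRF2 response genes 1 rose and 1 fell, and of 19 genes of the integrated stress response 2 rose and 0 fell. Wars, a tryptophan tRNA ligase, rose from 75.3, 76.4 and 54.6 CPM to 647, 453 and 533 CPM (3.05, SE 0.30, adjusted p = 0.00397), kept throughout. Asns, asparagine synthetase, was at 360 CPM in XEN 1 and at 46.3 and 71.1 CPM in XEN 2 and 7, against 191, 152 and 119 CPM in MEF. It was not called (0.12, adjusted p = 0.921), and without XEN 1 it was called lower (-1.31, adjusted p = 0.0474). Without 1 library in turn, p53 targets gave 0 to 3 calls in either direction, NRF2 response genes 0 to 5 higher and 0 to 2 lower, and stress response genes 1 to 3 higher and 0 to 3 lower.

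Calls on immune genes were all in the lower direction with all 6 libraries. Interferon response genes had 1 of 23 called lower, a smaller share than the 13.7% of all genes. Without XEN 1 there were 15, where 16.0% of all genes were called lower. Isg15, a ubiquitin-like interferon target, was at 52.5, 49.7 and 51.5 CPM in MEF, at 51.1 CPM in XEN 1, and at 0.448 and 1.12 CPM in XEN 2 and 7 (-1.48, adjusted p = 0.492; -5.92 and 0.0052 without XEN 1). Of 12 MHC class I pathway genes 5 fell and 0 rose: Tap2, a peptide transporter, went from 54.8, 48.1 and 70.2 CPM to 10.3, 1.25 and 7.85 CPM (-3.08, SE 0.74) and Psmb8, an immunoproteasome subunit, from 20.8, 21.3 and 22.2 CPM to 2.94, 0.269 and 0.313 CPM (-4.14, SE 1.03), while B2m and H2-K1 overlapped between groups. Complement and chemokine genes had 5 of 14 lower, among them C3, the central complement component, from 10.3, 9.71 and 10.6 CPM to 1.42, 0.179 and 0.417 CPM (-3.86, SE 0.80). Lower calls were 0 without each MEF library for the interferon and MHC lists and 0, 1 and 1 for complement and chemokines. Without XEN 1, 2 and 7 they were 15, 2 and 1 for interferon, 4, 4 and 6 for MHC and 7, 5 and 6 for complement and chemokines.

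Markers of other cell types moved with the groups as well. The 17 macrophage markers summed to 119, 180 and 365 CPM in MEF and to 13.1, 20.8 and 24.3 CPM in XEN cells, and 11 of 15 tested fell (median -6.52). C1qa, C1qb and C1qc, the chains of complement C1q, and Emr1, an adhesion receptor of macrophages, were at 0 counts in all 3 XEN libraries, at least 260-, 140-, 174- and 241-fold lower. The share of these cells in the differences between groups was not tested. Lower calls were 4, 5 and 5 without MEF 1, 2 and 3 and 10, 12 and 12 without XEN 1, 2 and 7. The 13 endothelial markers summed to 47, 44.4 and 52.8 CPM in MEF and to 426, 325 and 1415 CPM in XEN cells, and 5 of 8 tested rose and 1 fell. Cdh5, VE-cadherin, was at 3.99, 1.81 and 2.5 CPM in MEF and at 130, 140 and 100 CPM in XEN cells (5.54, SE 0.39, adjusted p = 0.0026), kept throughout, and Vwf, von Willebrand factor, at 19.4, 6.4 and 624 CPM against 1.28, 1.88 and 2.56 CPM. The 1 that fell was Erg, from 4.1, 3.69 and 13.1 CPM to 0.138, 0.0448 and 0.339 CPM (-5.15, SE 0.96, adjusted p = 0.0151). Higher calls were 2, 3 and 1 without MEF 1, 2 and 3 and 4, 5 and 5 without XEN 1, 2 and 7. Of 4 trophoblast markers tested 0 were called, of 4 neural markers Sox10, a neural crest factor, fell from 7.28, 5.23 and 7.19 CPM to 1 count in all, and of 3 blood markers the embryonic globin Hba-x rose to 1.74, 4.25 and 1.57 CPM from 1 count in all.

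Transcripts present in every library of a group and near zero in the other were few. With at least 10 CPM in each XEN library and at most 0.1 CPM in each MEF library there were 6 genes, all called, among them Hnf4a, the keratin Krt23, the basement membrane anchor protein Lad1, the steroid dehydrogenase family member Akr1c12 and the TRIM family gene Triml1. The reverse held for 12 genes, all called: Meox2, Tbx4, Gdf10, Cxcl14, Thbs4, Msr1, Iigp1, Galnt9, Dock10, Fam13c, Slc14a1 and Slc27a6. Cxcl14, a chemokine, had 38.8, 52.5 and 35.5 CPM in MEF and 1 count in XEN cells, a MEF to XEN ratio of 3442 (617 to 135970). Msr1, a scavenger receptor of macrophages, had 11.5, 15.5 and 32.5 CPM in MEF and 0 counts in XEN cells, at least 577-fold lower. Dock10, Fam13c, Slc14a1, Slc27a6, Lad1 and Triml1 fall outside the naming rule and were taken after their values were seen.

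The calls with the smallest adjusted p named genes of several kinds. Beside Trap1a, Lin28a, Foxq1 and Sox17 they included Tcf23, a helix-loop-helix factor, from 2.21, 2.22 and 1.8 CPM to 103, 93.4 and 87.6 CPM (5.58, SE 0.25, adjusted p = 0.00129), Krt23, from under 0.09 CPM to 65.1, 40.9 and 76.4 CPM (9.55, SE 0.46), Stard10, a lipid transfer protein, from 3.76, 3.2 and 5.21 CPM to 276, 179 and 208 CPM (5.83, SE 0.36), and Adora1, an adenosine receptor, from under 0.62 CPM to 106, 174 and 71.1 CPM (7.84, SE 0.48). Among lower calls they included Sulf1, an enzyme that trims sulfate from heparan chains, from 275, 263 and 263 CPM to 31.3, 34.9 and 37.6 CPM (-2.88, SE 0.22, adjusted p = 0.00268), Cask, a scaffold kinase, from 132, 96.6 and 123 CPM to 9.45, 11.4 and 12.1 CPM (-3.35, SE 0.25), and Egfl6, a secreted EGF-repeat protein, from 193, 88.8 and 206 CPM to 0.413, 0.134 and 0.261 CPM (-9.15, SE 0.63). These calls were kept throughout.

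A small number of genes, most of them matrix genes, took a larger share of counts in XEN 1 and 2 than in MEF. The 10 genes of highest mean CPM in XEN cells were Col4a1, Sparc, Col4a2, Lama1, Rn45s, Lamc1, Lamb1, Eef1a1, Actg1 and Serpinh1. They took 11.5%, 20% and 4.53% of counts in XEN 1, 2 and 7 and 3.44%, 4.23% and 3.6% in MEF. In XEN 7, much of that share was in Rn45s, Actg1 and Eef1a1, which are not matrix genes. These took 1.46%, 1.02% and 0.547% there, against 0.208% for Col4a1. Col4a1 alone took up 5.25% of the counts in XEN 2. Genes called higher took 4.31%, 4.62% and 4.38% of counts in MEF and 21.4%, 28.7% and 18.9% in XEN cells, and genes called lower 18.2%, 17.6% and 19% in MEF and 3.96%, 3.24% and 2.69% in XEN cells.

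The XEN lines differed among themselves in named sets of genes. Among 9928 genes with at least 10 CPM in a XEN library, 87 were at least 10-fold higher in XEN 1 than in both other lines (1 CPM added) and 0 lower. The same counts were 13 and 26 for XEN 2, and 166 and 115 for XEN 7. For MEF, at most 1 of 9583 genes stood apart in any library. The genes named in this paragraph and the next were picked after their values were seen. Most came from those with the largest ratios, though not in strict order, and some genes of similar ratio are not named. The Y-linked genes and those given for XEN medium were picked by kind. The 87 genes of XEN 1 held 12 interstitial matrix genes, 5 other imprinted genes and 3 contractile genes, and were led by Postn and by Thy1, a fibroblast surface glycoprotein at 216 CPM in XEN 1 against 0.313 and 0 CPM in XEN 2 and 7 (-1.91, adjusted p = 0.565; -10.95 and 0.0115 without XEN 1). Dpt, the matrix protein dermatopontin, was at 146, 0.0895 and 0 CPM, with 134, 65.5 and 99.2 CPM in MEF. In XEN medium, the library of the same number held 0.0245 CPM of Postn, 0.0245 CPM of Thy1 and 0.294 CPM of Col1a1.

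Genes that set XEN 7 apart included some of stomach lining, the urothelial gene Upk1b, and Xist of the X chromosome. Upk1b, a urothelial membrane protein, was at 438 CPM in XEN 7 and at 0.138 and 0.0448 CPM in XEN 1 and 2, with 7.51, 15.5 and 7.66 CPM in MEF (3.92, adjusted p = 0.295; -6.59 and 0.00437 without XEN 7). Cldn18, a claudin of stomach and lung, was at 391 CPM and at 0.0918 and 0 CPM, and Ctse, a gastric cathepsin, at 231 CPM and at 0.367 and 0 CPM. Genes low in XEN 7 included Spock1, a testican proteoglycan, at 504, 755 and 1.96 CPM, and Mdk, the growth factor midkine, at 600, 838 and 2.77 CPM. Xist, the RNA that coats the inactive X chromosome, was at 716 CPM in XEN 7 and at most 0.537 CPM in each of the other 5 libraries. The Y-linked Ddx3y was at 89.1, 82.4 and 108 CPM in MEF and at 39.2, 41.5 and 0 CPM in XEN cells, and Eif2s3y at 84.1, 74.8 and 82.8 CPM and at 65.8, 34.4 and 0 CPM. In XEN medium, the library numbered 7 held 1091 CPM of Xist, 156 CPM of Cldn18, 965 CPM of Gkn1, 708 CPM of Krt19 and 0 CPM of Ddx3y, and the library numbered 1 held 0.0245 CPM of Ddx3y and 15.5 CPM of Eif2s3y. The libraries numbered 1 thus differed between media in fibroblast transcripts and in Ddx3y. Those numbered 2 differed as well in Col1a1, at 137 CPM in ESC medium and 0.468 CPM in XEN medium. In the same order, they held 14.7 and 0.165 CPM of Prrx1, 0.806 and 0.358 CPM of Postn and 0.313 and 0.0825 CPM of Thy1. The sources used here do not say that a shared number means the same cells, and the reason for these differences was not tested. The part of the X and Y difference of XEN 7 in the comparison with MEF was not tested apart from leaving that library out.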

How the data were processed

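mRNA libraries made from Trizol extracts with a TruSeq mRNA kit were deposited as whole-number counts per gene symbol, 1 file per library, per the labels' protocols and the file contents. The submitters' processing notes name FastQC 0.11.3, Trimmomatic 0.32, TopHat2 2.0.12, HTSeq 0.6.1 and the mouse build mm9. The order of steps, the parameters, the annotation and any strand setting that the authors used for these counts were not given in the sources used here. Reads of overlapping or antisense genes, and of genes with near-identical copies (Krt8, Krt18, Ctsl, ribosomal proteins), may therefore be assigned to a partner. The 5 counter lines per file, 22% to 29.3% of a file's total in these 6 libraries, were left out.

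Of 24015 symbols, 4633 had 0 counts in all 6 libraries. Genes were filtered with filterByExpr (minimum count 10, minimum total 15), scaled by TMM and tested with edgeR 4.0.16 (R 4.3.3), quasi-likelihood, two-sided, 3 libraries against 3, with Benjamini-Hochberg adjustment over 14001 genes and a threshold of 0.05. CPM used TMM factors over all 17 libraries. Where a group had 0 counts, a fold is a bound against 3 counts over that group; with 1 to 3 counts it is a ratio with an exact 95% interval, and both cover counting error only. The scripts were tested on simulated counts, drawn for both groups from MEF means with the same spread and with few changed genes. That setting cannot show how the test behaves at the unequal spread of these groups. The comparison and the 45 gene lists were chosen with earlier results of these data known. Genes were named as list anchors, as the up to 4 largest called changes per list and direction, as the 10 largest called changes per direction at 10 CPM or more, as the 10 most abundant per group, and as the 10 smallest adjusted p per direction. Transcript lengths are the longest GENCODE vM21 transcript of a symbol, and promoters come from RefSeq's GRCm38.p6 table, both of another build than the counts and used by symbol. Alternatives were RLE size factors, robust dispersion, limma 3.58.1 (voom with group weights), DESeq2 1.42.0, other filters, all 17 libraries in the fit, a replicate block, a test against a 2-fold change, each library left out, and, added after seeing the data, a fit with the length trend removed.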

Additional observations from a re-analysis of the deposited data

How the results depend on the processing

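With all 6 libraries 3507 genes were called, 1591 higher and 1916 lower. Leaving out 1 library gave 372 to 6056 calls, 179 to 3207 higher and 193 to 2849 lower, the lowest without MEF 1 and the highest without XEN 2. In the full comparison and in each leave-out, the fit estimates 1 spread per gene over both groups. DESeq2 called 5850 (2834 higher, 3016 lower), and the test against a 2-fold change 1589 (558 and 1031). RLE size factors, robust dispersion, voom, other filters, all 17 libraries and the length trend removed gave 3120 to 3840, within 1.5 times the main count. The causes were not tested. The replicate block over shared numbers 1 and 2 called 1303 (476 and 827). No label ties a MEF culture to a XEN line: deviations of same-numbered libraries correlated at 0.106 (number 1) and -0.123 (number 2), and other pairs at -0.147 to 0.208, so the numbers are not treated as a pairing.

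Among genes named by the rule, a sign change that involved a call was seen for 4. Leaving out 1 library in turn, it ranged from -1.31 (without XEN 1) to 0.72 for Asns, from -4.84 (without XEN 1) to 1.12 for Gli1 and from -2.66 (without XEN 7) to 0.91 for Id1, none of which was called with all libraries. Hspg2 was at 0.09 with the length trend removed. Upk1b, outside the rule, went from 3.92 to -6.59 without XEN 7. Other genes changed sign without a call on either side, such as Nid1 (-0.35 without XEN 2), Krt19 (-0.34) and Apob (-1.05) without XEN 7. Low counts limit genes near the level of 3 counts, 0.0708 to 0.149 CPM.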
